A study of Mus musculus with 12 samples.

Results

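The guanylate-binding protein (*Gbp*) genes of B16-F10 cells were followed across 12 RNA-seq libraries. The family was taken as the rows of the deposited expression matrix whose gene name was *Gbp2*, *Gbp3*, *Gbp5*, *Gbp6*, *Gbp7*, *Gbp8* or *Gbp9*, which gave 7 of 23022 listed genes. B16-F10 is a mouse melanoma cell line, here expressing Cas9 and selected with puromycin after lentiviral delivery of paired guide RNAs. The control guides gave NTC cells (called no template control in the labels and non-targeting control by the study), and guides against *Mbnl1* and *Mbnl2*, which encode Muscleblind-like RNA-binding proteins, gave double knockout (DKO) cells. Both were sequenced untreated and after interferon gamma (IFNγ), with 3 libraries in each of 4 groups. The labels give no dose or duration. The DKO cells were a polyclonal edited population that kept some MBNL protein, and in these libraries *Mbnl1* RNA was lower in DKO than NTC cells by log2 differences of -0.41 untreated and -0.47 treated, and *Mbnl2* RNA by -0.20 and -0.23 (limma, adjusted p = 2.54e-05, 8.12e-06, 0.00937 and 0.00308).

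Guanylate-binding proteins are large GTPases of the dynamin superfamily that are switched on by interferons in most cell types. Signalling from the IFNγ receptor acts on the genes through gamma-activated sequence (GAS) elements and, through IRF1 and other factors, through interferon-stimulated response elements (ISRE). The proteins then assemble on the vacuoles and surfaces of intracellular pathogens and feed into inflammasome activation, and several are anchored to membranes by a prenyl group. In the mouse the genes lie in a cluster on chromosome 3 and another on chromosome 5, each made of close paralogs.

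In GRCm38 coordinates with GENCODE M21 annotation, *Gbp7* (ENSMUSG00000040253) is at chr3:142530342-142550149, *Gbp3* (ENSMUSG00000028268) at chr3:142560026-142573209 and *Gbp2* (ENSMUSG00000028270) at chr3:142620602-142638008, all on the plus strand. The deposited row named *Gbp5* carries ENSMUSG00000040264, which M21 names *Gbp2b* and places at chr3:142594847-142619179, plus strand. On the minus strand of chromosome 5, *Gbp8* (ENSMUSG00000034438) is at chr5:105014150-105139540 and *Gbp9* (ENSMUSG00000029298) at chr5:105077630-105139539, and these gene models overlap each other and *Gbp4*. The row named *Gbp6* carries ENSMUSG00000079362, which M21 names *Gm43302*, at chr5:105214907-105293695, and this model spans both *Gbp10* and *Gbp6*. The names below are those of the deposited rows, so the values of *Gbp5* and *Gbp6* belong to these identifiers.

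The bases before the start sites of the 3 genes of chromosome 3 that carried most of the family's RNA are shown because they hold the letters through which the interferon factors above are known to act. They are from RefSeq, GRCm38.p6, plus strand, 5′ to 3′, and end just before the start: chr3:142620543-142620662 for *Gbp2*, chr3:142559924-142560043 for *Gbp3* and chr3:142530216-142530335 for *Gbp7*. Capitals mark matches, on either strand, to the ISRE core (GAAA, any 2 bases, GAAA) or the GAS core (TTC, any 3 bases, GAA). The cores share no position in these windows except where *Gbp3* is described as holding overlapping ISRE cores.
Gbp2: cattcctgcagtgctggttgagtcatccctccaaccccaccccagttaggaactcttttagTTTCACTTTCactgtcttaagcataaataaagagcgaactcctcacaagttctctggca
Gbp3: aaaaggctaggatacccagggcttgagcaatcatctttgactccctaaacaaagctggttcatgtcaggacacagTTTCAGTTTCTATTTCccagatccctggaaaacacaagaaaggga
Gbp7: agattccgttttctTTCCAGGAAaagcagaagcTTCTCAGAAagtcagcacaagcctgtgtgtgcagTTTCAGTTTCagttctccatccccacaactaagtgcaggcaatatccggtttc
*Gbp2* held 1 ISRE core at -59 to -50 from its RefSeq start. That start lies past the M21 start given above, and this core is inside the M21 gene model. *Gbp3* held 2 ISRE cores that overlapped each other, at -45 to -36 and -39 to -30, and the window of a second listed *Gbp3* start held none. *Gbp7* held an ISRE core at -53 to -44 and, unlike the windows of *Gbp2* and *Gbp3*, a pair of GAS cores, at -106 to -98 and -87 to -79. Over 32851 RefSeq windows of 300 bases (250 before and 50 after a start), 3.44% held an ISRE core and 8.30% a GAS core. Of the 7 genes, 4 matched this table by symbol. *Gbp6*, *Gbp8* and *Gbp9* have no entry in it. A match is a description of the letters only.

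Values are TPM, a transcript abundance scaled for transcript length and library total, so that levels of different genes can be set side by side. Testing was limited to 11663 genes that reached 1 TPM in 3 or more libraries, and *Gbp2*, *Gbp3*, *Gbp6* and *Gbp7* were among them. *Gbp5*, *Gbp8* and *Gbp9* did not reach 1 TPM in any library. *Gbp6* reached 1 TPM in treated libraries alone, and *Gbp7* in the treated libraries and a single untreated DKO library, so both entered the test largely through the groups in which they were high. The IFNγ calls of these genes must be read with that in mind. Differences are on the log2(TPM + 1) scale, which understates changes of low genes, with the limma standard error (SE) and a p-value adjusted by Benjamini-Hochberg over all genes tested. Nothing in the labels says that replicates were separate cultures, so p-values measure the spread between these libraries, which may be technical. The total of the listed TPM was 844185 to 874612 in NTC libraries and 805782 to 827191 in DKO libraries, and the files hold no read counts. Melanocyte markers were at 1 TPM or more in every library (7 of 7), and the leukocyte genes *Ptprc* and *Cd3e* were at 0 in all 12. Another leukocyte marker, *Cd68*, was at 1.51 to 6.49 TPM over the 12 libraries, and all 6 listed leukocyte markers are summed below.

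**Figure D1:**
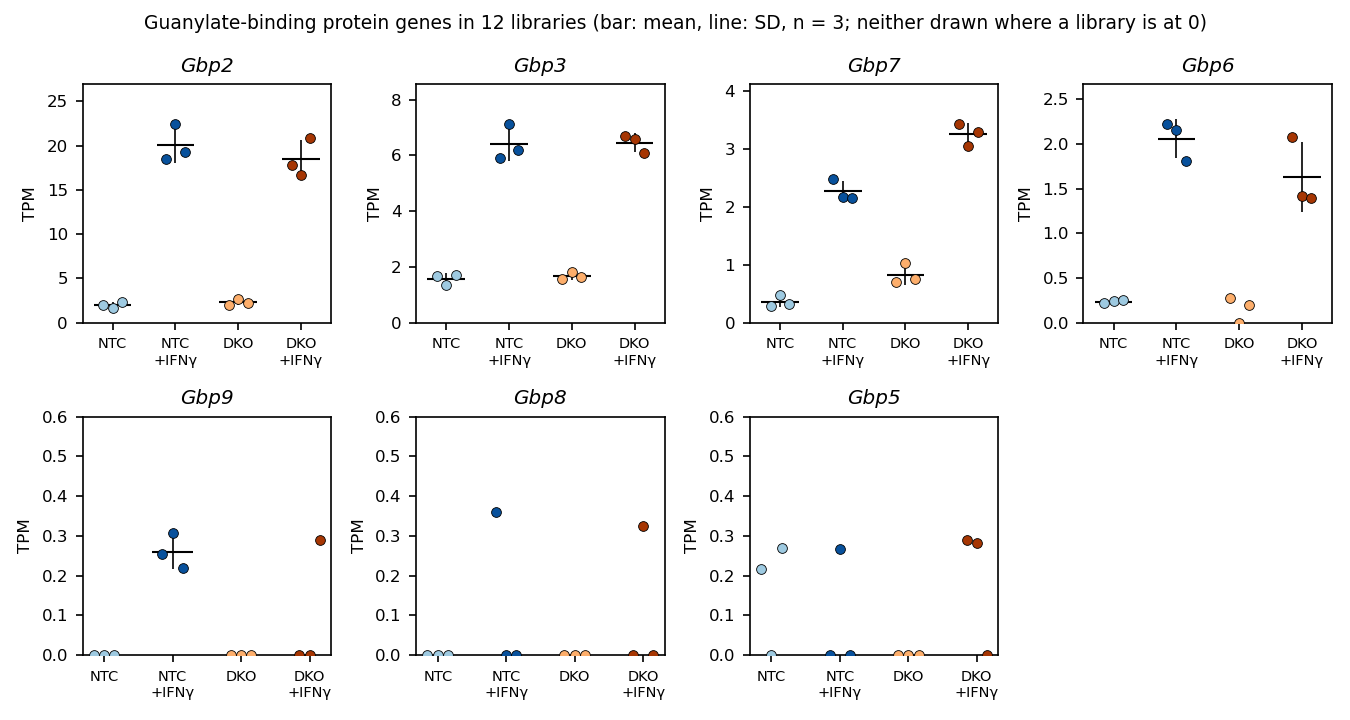
Level of each of the 7 genes in TPM (vertical axis, linear from 0, scaled per gene) in the 12 libraries by group (horizontal axis). Points are libraries, horizontal bars means and vertical lines SD (n = 3), both left out for groups with a library at 0. *Gbp2* goes from about the level of *Gbp3* without IFNγ to between 16.7 and 22.4 TPM with it, and *Gbp7* is the gene whose DKO points lie above the NTC points in both treatments.

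Without IFNγ, B16-F10 cells held little RNA of any family member. *Gbp2*, whose product coats parasite vacuoles, was the most abundant in NTC cells, at 1.98, 1.62 and 2.31 TPM in replicates 1 to 3 (1.97 ± 0.343, SD, n = 3). *Gbp3* followed at 1.69, 1.35 and 1.70 TPM (1.58 ± 0.201), and its range overlapped that of *Gbp2*. These genes were several times above *Gbp7*, at 0.291, 0.479 and 0.324 TPM (0.365 ± 0.1), with no overlap. *Gbp6* was listed at 0.216, 0.240 and 0.250 TPM (0.235 ± 0.0175), below all *Gbp7* values. The row of *Gbp5* was at 0.216, 0 and 0.269 TPM, which overlapped *Gbp6*. *Gbp8* and *Gbp9* were at 0 in all 6 untreated libraries of both genotypes.

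In NTC cells IFNγ raised all 4 tested genes, and *Gbp2* became by far the most abundant of them. All 4 were called higher (adjusted p under 0.05), where 7.31% of the 11663 tested genes were called higher in the same comparison. Of all calls there 60.5% were higher, and 45.1% to 48.8% with the libraries scaled in other ways. The median log2 difference of the 4 genes was 1.42, and that of all tested genes 0.019. The count and the median include *Gbp6* and *Gbp7*, which entered the test largely through treated libraries. *Gbp2* and *Gbp3* reached 1 TPM in every library.

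*Gbp2* rose to 18.5, 22.4 and 19.3 TPM (20.1 ± 2.06, n = 3), 10.2 times the untreated mean. Every treated library was above every untreated one. The log2 difference of 2.83 (SE 0.113, limma adjusted p = 1.53e-09) was the highest of all tested genes on the log2(TPM + 1) scale. This is not a ranking by ratio, which genes at 0 TPM in the untreated libraries, such as *Tgtp1* and *Tgtp2*, do not have. By ratio of mean TPM, *Igtp* (0.359 to 5.24 TPM) and *Irgm2* (0.678 to 8.31 TPM) rose more than *Gbp2* in NTC cells. Their untreated levels were below 1 TPM. *Gbp3* rose to 5.92, 7.12 and 6.21 TPM (6.42 ± 0.623), 4.07 times the untreated mean, with a log2 difference of 1.52 (SE 0.0947, limma adjusted p = 2.00e-07), at rank 23. The untreated ranges of *Gbp2* and *Gbp3* overlapped, while their treated ranges lay apart. *Gbp7*, which has been linked to oxidative defence and to the control of parasite vacuoles, rose to 2.48, 2.17 and 2.15 TPM (2.27 ± 0.182), 6.21 times the untreated mean. Its log2 difference was 1.26 (SE 0.112, limma adjusted p = 1.14e-05, rank 33). *Gbp6* rose to 2.22, 2.15 and 1.81 TPM (2.06 ± 0.222), 8.75 times the untreated mean, with a log2 difference of 1.31 (SE 0.140, limma adjusted p = 8.13e-05, rank 31). The treated ranges of *Gbp7* and *Gbp6* overlapped.

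The other members stayed below 1 TPM. *Gbp9* was listed at 0.255, 0.306 and 0.219 TPM with IFNγ against 0 in each untreated NTC library, so its groups did not overlap. With every gene above 0 in a library admitted, 16123 in all, its log2 difference was 0.33 (SE 0.0893, limma adjusted p = 0.0534), outside the threshold. *Gbp8* was at 0.359 TPM in replicate 1 and at 0 in the other treated NTC libraries. *Gbp5*, whose product promotes the NLRP3 inflammasome but whose deposited identifier is that of *Gbp2b*, was at 0.268 TPM in replicate 2 and at 0 in replicates 1 and 3, within the range of the untreated libraries. A listed 0 does not show absence at this precision: each library held 8874 to 9425 genes at 0 but only 67 to 131 genes between 0 and 0.1 TPM, while 306 to 451 lay between 0.1 and 0.2 TPM.

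The DKO cells showed the same order of levels among the tested genes. All 4 were again called higher with IFNγ, where 0.677% of the tested genes were called higher in this comparison. Their median log2 difference was 1.35 against 0.0081 for all tested genes, with the same limit from the filter for *Gbp6* and *Gbp7*. *Gbp2* went from 2.06, 2.71 and 2.23 TPM (2.33 ± 0.338) to 17.8, 16.7 and 20.9 TPM (18.5 ± 2.15), 7.93 times higher. Its log2 difference of 2.55 (SE 0.113, limma adjusted p = 6.03e-09) was again the highest of all tested genes on the log2(TPM + 1) scale. *Gbp3* went from 1.56, 1.82 and 1.65 TPM (1.68 ± 0.131) to 6.71, 6.57 and 6.08 TPM (6.45 ± 0.333), 3.84 times higher, with a log2 difference of 1.48 (SE 0.0947, limma adjusted p = 3.43e-07). Unlike in NTC cells, the untreated ranges of *Gbp2* and *Gbp3* did not overlap.

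*Gbp7* went from 0.700, 1.02 and 0.750 TPM (0.824 ± 0.173) to 3.42, 3.04 and 3.29 TPM (3.25 ± 0.195), 3.95 times higher, with a log2 difference of 1.22 (SE 0.112, limma adjusted p = 1.87e-05). *Gbp6* was listed at 0.278, 0 and 0.199 TPM untreated and at 2.08, 1.41 and 1.39 TPM (1.63 ± 0.389) with IFNγ, and its log2 difference was 1.18 (SE 0.140, limma adjusted p = 0.000338). For both genes the treated libraries lay above the untreated ones, and treated *Gbp7* lay above treated *Gbp6* without overlap. *Gbp5* was at 0 in the untreated DKO libraries and at 0.289, 0.281 and 0 TPM with IFNγ. *Gbp8* was at 0.325 TPM in treated replicate 2 alone and *Gbp9* at 0.289 TPM in treated replicate 3 alone, so for these 3 genes the DKO groups shared the value 0.

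Whether the IFNγ response itself differed between DKO and NTC cells was tested as the interaction of genotype and treatment. None of the 4 genes was called (limma), where 0.0343% of the tested genes were, and none had an unadjusted p under 0.05 although 1340 of all tested genes did. For *Gbp2* the DKO response was lower by a log2 value of -0.28, with a 95% confidence interval of -0.63 to 0.061 (limma adjusted p = 0.496). The interval was -0.34 to 0.24 for *Gbp3* around -0.048, -0.55 to 0.30 for *Gbp6* around -0.13 and -0.38 to 0.31 for *Gbp7* around -0.035. Each interval held 0 and differences of more than 0.3 in size, and the sign was not stable for 3 of the 4 genes: the estimate for *Gbp6* was 0.24 with a pseudocount of 0.1 (limma adjusted p = 0.901), and leaving out a single library took *Gbp3* as high as 0.019 and *Gbp7* as high as 0.041. For *Gbp7* the TPM ratios, 6.21 in NTC and 3.95 in DKO cells, lay further apart than the log2(TPM + 1) responses, and with a pseudocount of 0.1 its estimate was -0.49 (limma adjusted p = 0.523).

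**Figure D2:**
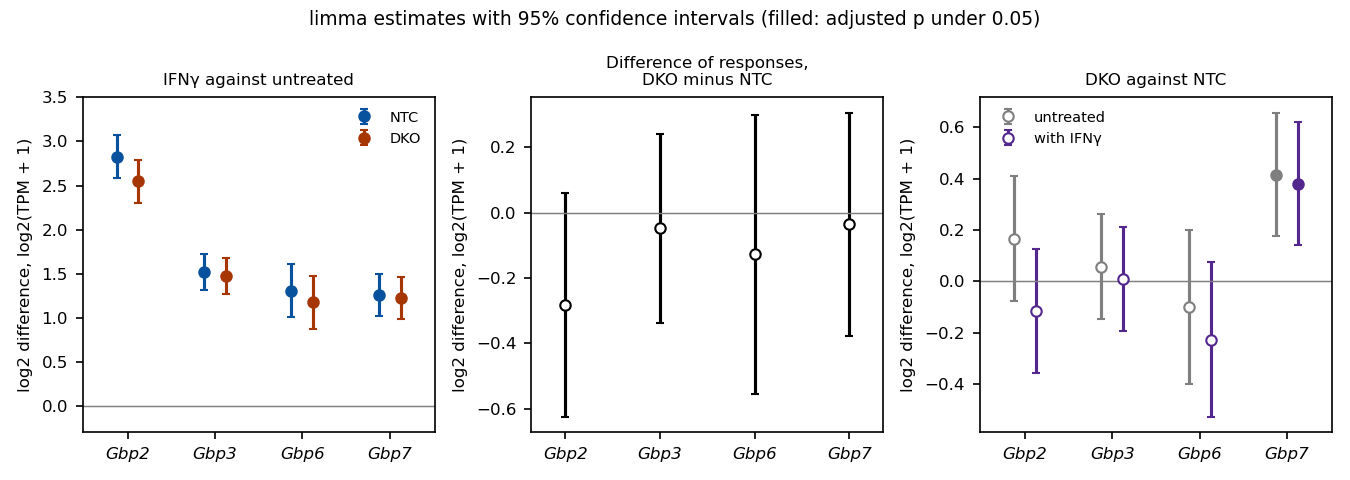
Log2 differences on the log2(TPM + 1) scale (vertical axes) for the 4 tested genes (horizontal axes), with 95% confidence intervals from limma over 12 libraries, for IFNγ against untreated cells (left), the difference of these responses (middle) and DKO against NTC cells (right). Filled points have an adjusted p under 0.05: all 8 responses, none of the differences of responses, and *Gbp7* at 0.42 and 0.38 in the right panel.

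Between genotypes, *Gbp7* was the family member called, and it was higher in DKO cells with and without IFNγ. This was 1 of 4 tested genes in each comparison, where 17% of the tested genes were called higher without IFNγ and 19.5% with it, so the share of the family was near that of all genes. None of the 4 was called lower, where 19.4% and 23.9% of the tested genes were. Of all calls 46.7% and 44.9% were higher, and 60.7% and 65.3% once all libraries were brought to a common total, where 22.8% and 28.1% of the tested genes were called higher and *Gbp7* kept its call. Untreated, the lowest DKO value of *Gbp7* was 0.700 TPM and the highest NTC value 0.479 TPM. The DKO mean was 2.26 times the NTC mean, and the log2 difference was 0.42 (SE 0.112, 95% interval 0.18 to 0.66, limma adjusted p = 0.0103). With IFNγ, the lowest DKO value was 3.04 TPM and the highest NTC value 2.48 TPM. The DKO mean was 1.44 times the NTC mean, with a log2 difference of 0.38 (SE 0.112, 95% interval 0.14 to 0.62, limma adjusted p = 0.0143). With a pseudocount of 0.1 the treated difference of *Gbp7* was 0.50 and no longer passed (limma adjusted p = 0.0723), while the untreated one was 1.00 (limma adjusted p = 0.00266).

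The other tested genes gave no call between genotypes. For *Gbp2* the log2 difference, DKO minus NTC, was 0.17 untreated (95% interval -0.076 to 0.41, limma adjusted p = 0.271) and -0.11 treated (-0.36 to 0.13, 0.438). For *Gbp3* it was 0.057 (-0.15 to 0.26, 0.673) and 0.0092 (-0.19 to 0.21, 0.948). For *Gbp6* it was -0.10 (-0.40 to 0.20, 0.616) and -0.23 (-0.53 to 0.074, 0.208). The DKO and NTC libraries of these 3 genes overlapped in both treatments.

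Other values moved with genotype beside *Gbp7*. The summed TPM of 6 listed leukocyte markers was 1.76 to 2.22 in untreated NTC, 2.24 to 3.23 in treated NTC, 2.82 to 3.4 in untreated DKO and 5.10 to 6.80 in treated DKO libraries, most of it from *Cd68*, while *Ptprc* and *Cd3e* were at 0. The sum of 4 fibroblast and endothelial markers was 0.765 to 1.99 in NTC and 2.31 to 2.67 in DKO libraries, with *Cdh5* at 0 throughout. Melanocyte markers summed to 16647 to 18642 in NTC and 11124 to 12414 in DKO libraries. Their part in the difference of *Gbp7* was not tested.

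The makeup of the family's RNA was described by each gene's share of the summed TPM of the 7 genes, a quantity that does not depend on how a library was scaled. *Gbp2* made up 45.6% ± 1.85 (SD, n = 3) of the sum in untreated NTC cells and 64.1% ± 1.60 with IFNγ, and 46.6% ± 2.06 and 61.1% ± 3.76 in DKO cells. The share of *Gbp3* went the other way, from 36.7% ± 1.74 to 20.5% ± 0.542 in NTC and from 33.7% ± 0.759 to 21.4% ± 2.15 in DKO cells. None of these 4 pairs of groups overlapped, and each gave an exact two-sided permutation p = 0.1, the smallest that 3 against 3 libraries allow, so the design cannot reach 0.05 here. The share of *Gbp7* was 8.77% (6.62 to 13) in untreated NTC and 16.4% (15.2 to 18.4) in untreated DKO libraries, and 7.29% (6.31 to 8.31) and 10.8% (10.3 to 11.3) with IFNγ. DKO and NTC libraries did not overlap in either treatment (exact permutation p = 0.1 for each, 3 libraries a group). Over the 16 comparisons of shares made, no p could be lower than this before adjustment.

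**Figure D3:**
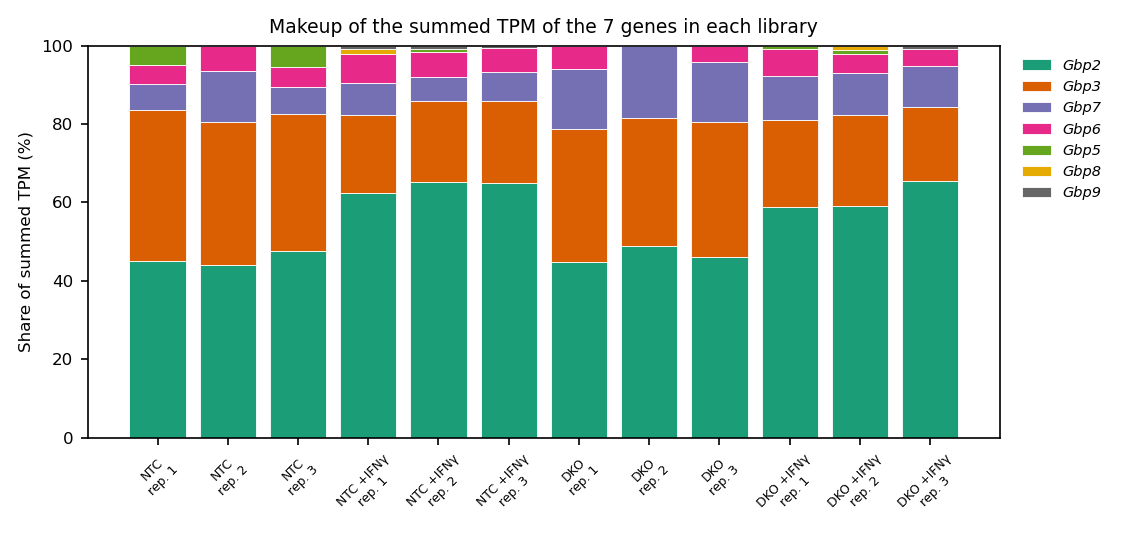
Share of each gene in the summed TPM of the 7 genes (vertical axis, percent) in each of the 12 libraries (horizontal axis). *Gbp2* takes 44.0% to 48.8% of the sum in untreated libraries and 58.8% to 65.4% in treated ones, and *Gbp7* takes more in DKO than in NTC libraries of the same treatment.

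Because reads of paralogs can be divided between them when transcripts are quantified, the overlap of their sequences was measured. Of all stretches of 50 bases (the read length) in the M21 transcripts, the share also found in a transcript of another gene was 2.03% for *Gbp2* (with *Gbp2b*), 3.75% for *Gbp3* (with *Gbp7*) and 1.84% for the identifier deposited as *Gbp5* (with *Gbp2*). For *Gbp7* it was 12.7%, with 10.5% shared with *Gm43802*, a gene model that overlaps *Gbp7* on the same strand, and 2.24% with *Gbp3*. It was 18.1% for *Gbp8* and 8.05% for *Gbp9*. Every stretch of the identifier deposited as *Gbp6* was shared, 93.0% with M21 *Gbp6* and 64.7% with *Gbp10*. By single stretches of M21, the *Gbp6* row therefore cannot be told apart from these genes, and the libraries were not stranded. The study quantified paired reads on its own merged annotation rather than M21, so these shares do not show how reads were divided here.

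**Figure D4:**
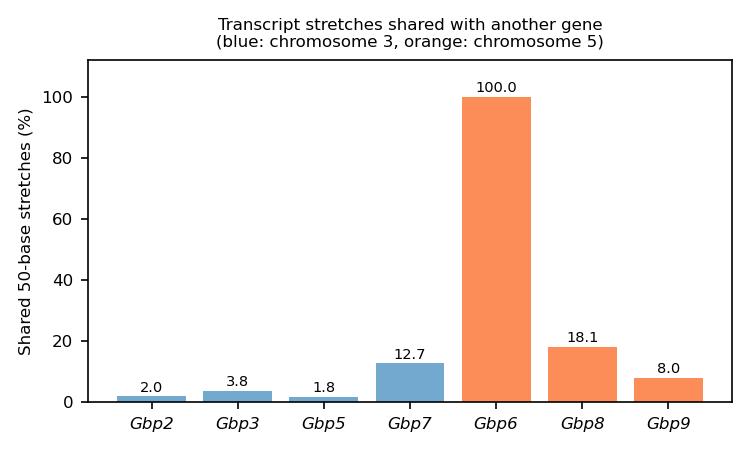
Percent of 50-base transcript stretches that also occur in a transcript of another gene (vertical axis) for each of the 7 deposited identifiers (horizontal axis), in M21. Genes of chromosome 3 (blue) lie between 1.84% and 12.7%, and the row named *Gbp6* on chromosome 5 (orange) is shared throughout.

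Sums over a chromosome cluster depend less on how reads were divided within it. The 4 members on chromosome 3 summed to 4.07 ± 0.582 TPM in untreated and 28.8 ± 2.73 TPM in treated NTC libraries, and to 4.84 ± 0.640 and 28.4 ± 1.82 TPM in DKO libraries (SD, n = 3 each). The 3 members on chromosome 5 summed to 0.216, 0.240 and 0.250 TPM in untreated NTC and 2.83, 2.46 and 2.02 TPM in treated NTC libraries. In DKO cells they summed to 0.278, 0 and 0.199 TPM and to 2.08, 1.74 and 1.68 TPM. Both clusters rose without overlap in both genotypes, at the smallest exact permutation p of 0.1. Between genotypes the groups of the members' sums overlapped for both clusters, with exact permutation p = 0.2 untreated and 0.8 treated on chromosome 3, and 0.6 and 0.2 on chromosome 5. Over all 6 listed *Gbp* genes of chromosome 5 the treated groups did not overlap, with a mean of 3.01 ± 0.155 TPM in DKO and 3.68 ± 0.588 TPM in NTC libraries (exact permutation p = 0.1, n = 3 each). When the listed *Gbp* genes of chromosome 3 were fitted as 1 row, the log2 response was 2.56 in NTC and 2.34 in DKO cells and its difference -0.22 (limma adjusted p = 0.538), and the DKO excess of *Gbp7* was not seen in the sum, at 0.20 untreated (limma adjusted p = 0.139) and -0.021 treated (0.885).

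Of the *Gbp* genes outside the 7, *Gbp1*, *Gbp4*, *Gbp10* and *Gbp11* were listed and none passed the filter. The identifiers of the rows named *Gbp1* and *Gbp10* are not in M21, so both rows were assigned to a cluster by name in the sums above. *Gbp1* was at 0 in all libraries. *Gbp4*, a chromosome 5 paralog, was at 0 in the untreated NTC libraries and at 0.293, 0.220 and 0.219 TPM with IFNγ, and in DKO cells at 0, 0.233 and 0 TPM and then 0.226, 0.220 and 0.208 TPM. *Gbp10* was at 0 to 0.194 TPM in the 6 untreated and 0.361 to 0.553 TPM in the 6 treated libraries, which did not overlap. *Gbp11*, annotated as a polymorphic pseudogene, was at 0.479 to 0.691 TPM untreated and 0.387 to 0.784 TPM treated, and these ranges overlapped.

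Interferon-regulated transcription factor genes that act on the family had smaller log2 differences than *Gbp2*. With IFNγ in NTC cells, *Irf9* was higher at a log2 difference of 1.29, *Irf1* at 1.14 and *Stat2* at 0.36 (limma adjusted p = 1.59e-07, 2.10e-07 and 0.0309). In DKO cells *Irf9* was higher at 0.96 and *Irf1* at 0.93 (limma adjusted p = 5.43e-06 and 2.20e-06), and *Stat2* was at 0.22 (limma adjusted p = 0.473). None of these 3 genes was called in the difference of responses (limma adjusted p = 0.377, 0.451 and 0.698). Between genotypes, *Irf1* was higher in DKO cells both untreated (log2 difference 0.53, limma adjusted p = 7.83e-05) and treated (0.33, 0.00235). Of all tested genes, 17% were called higher untreated and 19.5% treated. A link to the level of any family member was not tested.

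The immunity-related GTPases of chromosome 11, which act on the same vacuoles as the guanylate-binding proteins, were called higher with IFNγ in 5 of 5 genes in each genotype. Of all tested genes, 7.31% were called higher in NTC and 0.677% in DKO cells. *Tgtp1* and *Tgtp2* were at 0 TPM in all untreated libraries, and *Igtp* reached 1 TPM in treated libraries alone. *Irgm2* reached it in the treated libraries and a single untreated DKO library. Those genes entered the test largely through the groups in which they were high. The median log2 difference of the 5 genes was 2.20 in NTC and 1.94 in DKO cells, led in NTC cells by *Tgtp2* (2.48), *Irgm2* (2.47) and *Igtp* (2.20). All were below *Gbp2* on the log2(TPM + 1) scale, which understates changes of low genes, among them the rises of *Tgtp1* and *Tgtp2* from 0. By ratio of mean TPM in NTC cells, *Igtp* and *Irgm2* rose more than *Gbp2*, and *Irgm1* (4.95 to 24.0 TPM) rose less. In DKO cells *Igtp* (0.348 to 4.53 TPM) rose more than *Gbp2*, while *Irgm2* (0.965 to 6.38 TPM) and *Irgm1* (9.52 to 35.9 TPM) rose less. None of the 5 was called in the difference of responses. Between genotypes *Irgm1*, a regulator of this group, was higher in DKO cells untreated (log2 difference 0.83, limma adjusted p = 1.69e-05) and treated (0.56, 0.000356). *Irgm2* was lower in treated DKO cells (-0.33, limma adjusted p = 0.0151). These calls are to be read beside the shares of all tested genes called between genotypes, given above.

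The machinery through which the proteins reach membranes was read against all tested genes, of which 12.1% were called with IFNγ in either direction in NTC and 0.78% in DKO cells. Of 9 tested genes of ATG8 conjugation, the autophagy-related system that directs these GTPases to vacuoles, *Gabarap* alone was called with IFNγ in NTC cells, at 0.15 (limma adjusted p = 0.016), and none was called in DKO cells. Between genotypes, untreated DKO cells were higher for 1 of the 9 and lower for 2, and treated DKO cells higher for 1 and lower for 3, to be read beside the shares of all tested genes given above. None of 5 tested prenylation genes was called with IFNγ in either genotype, and between genotypes 1 was higher and 1 lower untreated, and 1 lower treated. Of 6 inflammasome genes, 3 were tested, and *Gsdmd*, which encodes the pore-forming protein of pyroptosis, was called higher with IFNγ in NTC (0.57, limma adjusted p = 0.0152) and DKO cells (0.61, 0.0345). *Casp4*, the cytosolic lipopolysaccharide-sensing caspase, was lower in DKO than NTC cells, at -0.59 untreated and -0.87 treated (limma adjusted p = 0.00236 and 0.000113). *Gsdmd* was at -0.34 and -0.31 (0.0418 and 0.0586), and *Pycard*, the inflammasome adaptor gene, at 0.12 and 0.14 (0.0799 and 0.043).

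The genes with profiles nearest to each member were found as the smallest root mean square (RMS) difference of log2(TPM + 1) values over the 12 libraries, each gene centred on its own mean. For *Gbp2* these were *Tgtp2* (RMS 0.222), the proteasome activator gene *Psme2* (0.238) and the immunoproteasome gene *Psmb10* (0.273), where the median over all genes was 1.35. For *Gbp3* they were *Psme1* (0.101), *Parp12* (0.152) and *Rtp4* (0.168), against a median of 0.764. For *Gbp6* they were the class I-like gene *H2-T22* (0.115), *Psme1* (0.201) and *Irf9* (0.214), against 0.648. For *Gbp7* they were *Lgals3bp* (0.127), *Irf1* (0.149) and *Ddx58*, the gene of the RNA sensor RIG-I (0.174), against 0.670. No gene was in the list of more than a single member except *Psme1*.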

How the data were processed

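RNA of B16-F10 cells was sequenced as poly(A)-selected, unstranded paired-end libraries, 12 in 4 groups of 3. According to the submitters' processing notes and the study's methods, reads were quantified with RSEM 1.2.4, which called Bowtie, on a merged transcript annotation, and reads left over were aligned with TopHat to mm10. The deposited values are TPM per gene, scaled between libraries by the authors in a way not given in the sources used here: every value was a whole multiple of 0.01 TPM times a library factor of 0.879 to 0.957, to within 1e-06 of a multiple. TPM hold no read counts, so no counting interval could be given.

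Groups came from the labels. log2(TPM + 1) of genes reaching 1 TPM in 3 or more libraries was fitted with limma 3.58.1 (R 4.3.3; 1 mean per group, variance trend, no block), with Benjamini-Hochberg adjustment over 11663 genes and a threshold of 0.05. The scripts were tested on simulated data. Sums and shares were compared by exact two-sided permutation tests in Python 3.11.15. Every member was named. Of each list, at most 3 genes, those with the largest change in NTC cells, and the 3 nearest profiles per member were named by rule. *Stat2*, *Irgm1*, *Casp4*, *Pycard*, *Cd68* and the differences of *Irf1* between genotypes were added after their values were seen. The count over the list of signalling genes is not reported here. The members and lists were chosen with earlier results of these data known. Alternatives were a pseudocount of 0.1, no filter, 2 other scalings, a replicate block, leaving out each library, fitting 6 libraries only, summing clusters and, chosen after seeing the data, dividing out the library factor and taking shares of all listed *Gbp* genes. Same-numbered libraries were not paired by the labels.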

Additional observations from a re-analysis of the deposited data

How the results depend on the processing

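Of 394 member results under the alternatives, 391 kept their direction or stayed uncalled. The 4 tested genes were called higher with IFNγ in both genotypes under each alternative, and 0 were called in the difference of responses. The call of *Gbp7* between genotypes was lost in some settings. Untreated, 0 members instead of 1 were called with only the 6 libraries of the comparison, where *Gbp7* fell under the filter and was not tested, and with the listed *Gbp* genes of each chromosome summed, where the row holding *Gbp7* was at 0.20. Treated, 0 instead of 1 were called with a pseudocount of 0.1 and with the sum, whose value of -0.021 turned the sign since it holds *Gbp2* and *Gbp3* too. Without single libraries 1 member stayed called in both, with *Gbp7* at 0.34 to 0.48 untreated (limma adjusted p = 0.0113 to 0.049) and 0.35 to 0.43 treated (0.0131 to 0.0496), 4 members with IFNγ in each genotype, and 0 in the difference.

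The rise of the chromosome 3 sum in DKO cells was 26.33 TPM with the library factor divided out instead of 23.5, and that of the chromosome 5 sum 1.87 instead of 1.67. Over all listed *Gbp* genes the chromosome 5 sum rose by 2.75 instead of 2.20 TPM in NTC and by 2.14 in DKO cells, since more genes enter it. Over that wider denominator the share of *Gbp2* rose by 22.5 instead of 18.6 points in NTC cells and by 18 instead of 14.5 in DKO cells, and that of *Gbp3* fell by 11.8 instead of 16.2 and by 8.8 instead of 12.2 points.

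Across all genes, the count called with IFNγ in NTC cells, 1411, was 897 with no filter and 317 to 394 without NTC untreated replicate 2 or 3 or NTC IFNγ replicate 2 or 3, and up to 2023 without other single libraries. The count in the difference of responses, 4, was 10 with no filter and 0 to 7 without single libraries. The cause was not tested. With the replicate number as a block, 2 genes were called in the difference and no member call changed. Same-numbered libraries correlated at -0.179 to 0.182 over 18 pairs, and 0 of 12 libraries correlated best with their own number. The other scalings moved the median of all genes by at most 0.08. Levels near or under about 0.3 TPM, those of *Gbp5*, *Gbp8* and *Gbp9*, limit what can be said of these genes. Untreated *Gbp6*, at 0 to 0.278 TPM, and untreated NTC *Gbp7*, at 0.291 to 0.479 TPM, were also close to this level. Ratios and differences taken against those values carry the same limit.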
